A study of Mus musculus with 6 samples.

Results

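A set of transcription factors listed as those of naive T cells was described here in regulatory T cells (Treg) of mouse mesenteric lymph nodes. Their roles differ, so a higher signal of a member is not by itself a sign of a more naive state. Members were Tcf7, Lef1, Satb1, Bach2, Foxp1, Ets1, Id2, Id3, Tcf3 and Tcf12, and every Affymetrix probe set that the platform's probe-gene table assigns to one of these symbols was taken, each kept apart. That gave 34 probe sets for 9 of the 10 genes, out of 45037 probe sets without controls. Tcf7, which encodes TCF-1, has no probe set named in the table and was not analysed here.

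There were 3 arrays of induced Treg (iTreg) from BALB/c TBmc mice with a Foxp3-GFP reporter, fed 1% ovalbumin for 1 week and sorted as CD4+ Foxp3+ Nrp- cells. TBmc mice lack the recombinase that assembles antigen receptors and carry only 1 T cell receptor, specific for ovalbumin, and 1 B cell receptor. They were set against 3 arrays of total CD4+ Foxp3+ Treg of BALB/c wild-type (WT) mice, also with the reporter; both groups were aged 4 to 6 weeks. The groups thus differ at once in genotype, receptor repertoire, feeding and gate, which cannot be told apart. The labels of 2 arrays depart from their titles: the strain of iTreg replicate 1 does not name TBmc or the reporter, and WT replicate 1 has the Nrp- cell type label. The main values of each gene are therefore also given without both. Whether each array stands for its own mice is not labelled, so p-values reflect only how these arrays spread, possibly for technical reasons.

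As background, LEF-1 and TCF-1 are paralogous HMG-box factors that bind DNA with the co-activator beta-catenin or with Groucho co-repressors, and both are high in naive T cells. Satb1 organises chromatin loops in T cells and is restrained by Foxp3 in Treg, and Bach2 pairs with small Maf proteins to hold back effector genes. Foxp1 keeps naive T cells quiescent, and Ets1 is a lymphoid Ets factor. Tcf3 (E2A) and Tcf12 (HEB) are E proteins, which bind E-box sequences as dimers. Id2 and Id3 bind E proteins but lack a DNA-binding region, and so keep E proteins off DNA.

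None of the 34 probe sets passed the test across all probe sets, by limma with Benjamini-Hochberg adjustment at 0.05. Of all 27022 probe sets tested, 7 passed, which is 0.0259%, with 0.0037% higher and 0.0222% lower in iTreg. The lowest adjusted p in the set was 0.623, for Satb1. At an unadjusted p under 0.05 there were 5 of the 34, against 6.21% of all probe sets tested; 4 of the 5 were higher in iTreg (2.44% of all) and 1 was lower (3.77% of all). Differences above 1 log2 unit in size were seen in 3 of the 34, against 4.85% of all. The clearest differences by size were higher Satb1 and Id2 signals in iTreg and lower Id3 signals, with 1 Foxp1 probe set lower and the other 7 slightly higher. In 6 of the 34 probe sets the groups did not overlap, against 11.4% of all probe sets tested; 5 were higher in iTreg, where the share over all probe sets was 4.54%, and 1 was lower, where it was 6.89%. Probe sets of a gene share their target, and 3 of the 6 were of Satb1. In bulk RNA, fewer cells that express a gene and less RNA per cell cannot be told apart.

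**Figure D1:**
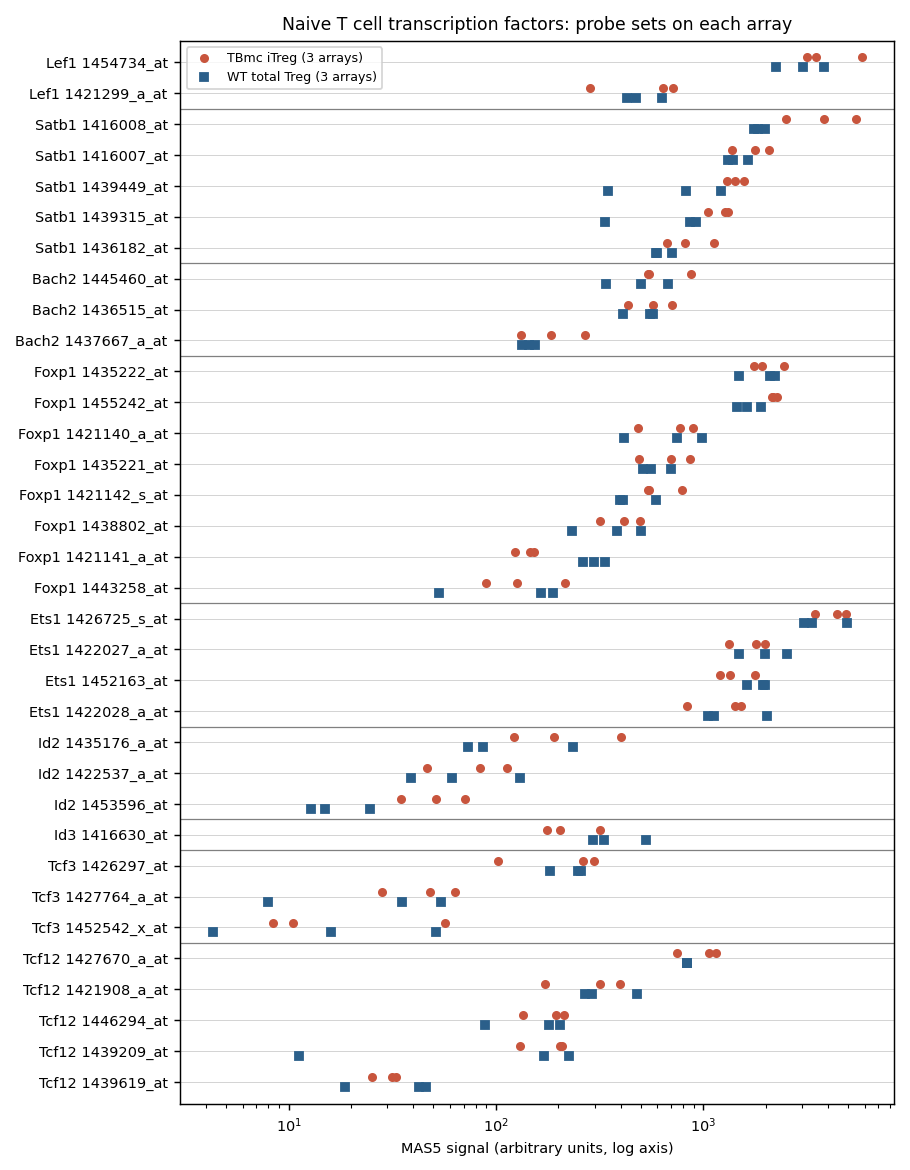
MAS5 signal (log axis) of each of the 34 probe sets, with 3 iTreg arrays as circles above 3 WT Treg arrays as squares. All 3 iTreg points lie above all WT points for Satb1 1416008_at, 1439449_at and 1439315_at, Foxp1 1455242_at and Id2 1453596_at, and below them for Foxp1 1421141_a_at.

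Across the set, 26 of 34 log2 differences (iTreg minus WT Treg) were positive, against 47.9% of all probe sets tested. Their median was 0.18, and that of all probe sets tested was -0.022. Of the 26 positive ones, 7 were of Foxp1 and 5 of Satb1. Members were chosen with earlier results of these arrays known, so the count is no independent evidence of a direction. The number of positive differences lay between 21 and 27 over the alternative settings that tested all 34, and it was 26 with quantile normalization and with median scaling. Taken per gene as the median of its probe sets, the difference was 0.89 for Satb1, 0.79 for Id2, 0.35 for Bach2, 0.22 for Lef1, 0.21 for Tcf12, 0.16 for Foxp1, 0.037 for Tcf3, -0.18 for Ets1 and -0.68 for Id3. Neighbours in this order lay closer to each other than the standard errors of their probe sets, other than Id2 and Bach2, and Ets1 and Id3. No gene was tested against another.

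Arrays differed within groups as well. The median signal was 26.8, 27.4 and 24.3 in iTreg replicates 1, 2 and 3, with 32.3, 31.7 and 21.1 in WT replicates 1, 2 and 3. WT replicate 3 stood more than 1 log2 unit under the mean of the other WT arrays in 6 of the 34 probe sets, and in 14.6% of all probe sets tested. For RNA quality, Gapdh had a 3′ over 5′ log2 signal ratio of 3.06, 2.48 and 3.38 in iTreg, against 2.28, 2.53 and 2.34 in WT Treg (two-sided exact permutation p = 0.2, the smallest possible being 0.1). For Actb that ratio was 0.38, 0.25 and -0.00044 in iTreg, against 0.14, 0.27 and 0.32 in WT Treg (exact permutation p = 0.8). B cells also express Bach2, Ets1 and the E proteins. The summed signal of 8 B cell markers was 102 to 153 in iTreg and 105 to 155 in WT Treg, and Blk, Cd22, Cr2, Ms4a1 and Pax5 were at or under 28.5 on every array, the highest signal of 27 bacterial control probe sets that had no spiked target. Myeloid markers summed to 588 to 861 in iTreg and 650 to 1190 in WT Treg over 8 genes (exact permutation p = 0.6). CD8 T and NK cell markers summed to 167 to 240 against 149 to 159 over 5 genes, with no overlap (exact permutation p = 0.1). Immature T cell markers summed to 74.0 to 136 against 54.8 to 82.2 over 5 genes (exact permutation p = 0.2). Ptcra, Rag1 and Rag2 were at or under 28.5 throughout, as were Klrk1, Ncr1 and Itgax. Within these lists 4 genes had a probe set that was higher in iTreg with no overlap: Cd74 averaged 136 in iTreg, against 30.8 in WT Treg, Lyz2 37.3 against 13.3, Cd8b1 90.6 against 43.7 and Dntt 39.1 against 13.7. Cst3, of the myeloid list, averaged 434 in iTreg, against 740.4 in WT Treg. The part of these values in the results was not tested. The sorted cells' own T cell and Treg markers (11 genes) summed to 18675 to 21567 in iTreg and 23735 to 31127 in WT Treg, with no overlap. Of their 18 probe sets, 4 had positive and 14 negative differences. Without overlap, 9 were lower in iTreg (6.89% of all probe sets tested) and 0 higher (4.54% of all). Of the 9, 4 were of Nrp1, on which iTreg were gated, and the rest of Cd5, Il2ra, Ikzf2 and Tnfrsf18. Cd3e averaged 4820 in iTreg, against 3820 in WT Treg, and Cd4 2559 against 1771, while Cd3g averaged 2459 against 3450, Cd3d 2539 against 3204, Cd5 668 against 1387 and Il2ra 1872 against 4684. The one Foxp3 probe set averaged 34.0 in iTreg, against 27.0 in WT Treg, near the control level.

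Promoter sequence is shown for the member with the lowest p, Satb1, and for the Id pair, whose differences had opposite signs. RefSeq (GRCm38.p6) gave start-site windows for 9 of the 10 members, 21 windows in all, and the 250 bases before each start were searched on both strands for the E-box CANNTG, which E proteins bind, and for CTTTGA, the core bound by TCF-1 and LEF-1. A base may belong to matches of both. An E-box was found in 14 of the 21 windows, against 66.2% of 32851 windows of all genes, and CTTTGA in 3 of 21, against 13.8%. Of 5 Satb1 windows the one shown has the most E-boxes, 2, while 3 others have 0. The Id2 window holds 1 and the Id3 window 0. Sequences run 5′ to 3′ on the gene's strand, and capitals mark motif matches.
Satb1, chr17:51826589-51826838, minus strand: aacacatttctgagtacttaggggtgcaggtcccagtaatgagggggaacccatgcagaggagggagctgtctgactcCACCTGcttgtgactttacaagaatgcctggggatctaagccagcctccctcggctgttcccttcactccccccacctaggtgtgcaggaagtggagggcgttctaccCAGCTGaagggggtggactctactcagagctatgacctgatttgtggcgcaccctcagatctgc
Id2, chr12:25096093-25096342, minus strand: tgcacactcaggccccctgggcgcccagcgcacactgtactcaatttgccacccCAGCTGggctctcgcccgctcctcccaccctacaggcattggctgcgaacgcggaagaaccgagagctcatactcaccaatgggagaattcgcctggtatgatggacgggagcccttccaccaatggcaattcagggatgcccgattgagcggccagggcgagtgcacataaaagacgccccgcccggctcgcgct
Id3, chr4:136143572-136143821, plus strand: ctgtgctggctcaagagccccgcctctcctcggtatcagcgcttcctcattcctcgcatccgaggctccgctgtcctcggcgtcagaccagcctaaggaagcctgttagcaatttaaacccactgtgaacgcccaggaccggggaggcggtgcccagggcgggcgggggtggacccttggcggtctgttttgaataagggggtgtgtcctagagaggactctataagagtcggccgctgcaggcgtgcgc
A match is a description of these letters only.

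Satb1 signals were higher in iTreg on all 5 of its probe sets, with log2 differences from 0.25 to 1.01. Its gene lies at chr17:51736187-51833290. On 1416008_at, the probe set with the highest mean, the signal was 3840, 2511 and 5476 in iTreg replicates 1, 2 and 3, against 1757, 1828 and 1993 in WT replicates 1, 2 and 3. Every iTreg array lay above every WT array, and the iTreg arrays spread far more, with 3942 ± 1485 (SD, n = 3) in iTreg against 1860 ± 121 in WT Treg. The difference was 1.01 with a standard error (SE) of 0.31, a 2.01-fold higher level in iTreg on the scale of signal + 16 (limma adjusted p = 0.623). Without the arrays with label doubts it was 0.95, and without single arrays it lay between 0.74 and 1.30.

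A second Satb1 probe set, 1439449_at, read 1566, 1426 and 1307 in iTreg, against 824, 1219 and 349 in WT Treg. Satb1 1439315_at read 1055, 1279 and 1323 in iTreg, against 925, 862 and 336 in WT Treg. WT replicate 3 was the lowest array on both, by more than 2-fold under the other WT arrays, whereas on 1416008_at it was the highest WT array. Their differences were 1.00 (SE 0.40, limma adjusted p = 0.775) and 0.89 (SE 0.38, limma adjusted p = 0.775). Without WT replicate 3 they came to 0.50 and 0.44; without the arrays with label doubts, to 1.04 and 1.25. The other probe sets, 1416007_at and 1436182_at, had overlapping groups and differences of 0.25 and 0.42. On the first the means were 1739 ± 354 in iTreg and 1450 ± 166 in WT Treg, and on the second 870 ± 234 and 633 ± 65.2 (SD, n = 3). The sign was positive on all 5 probe sets in each alternative that tested them all.

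**Figure D2:**
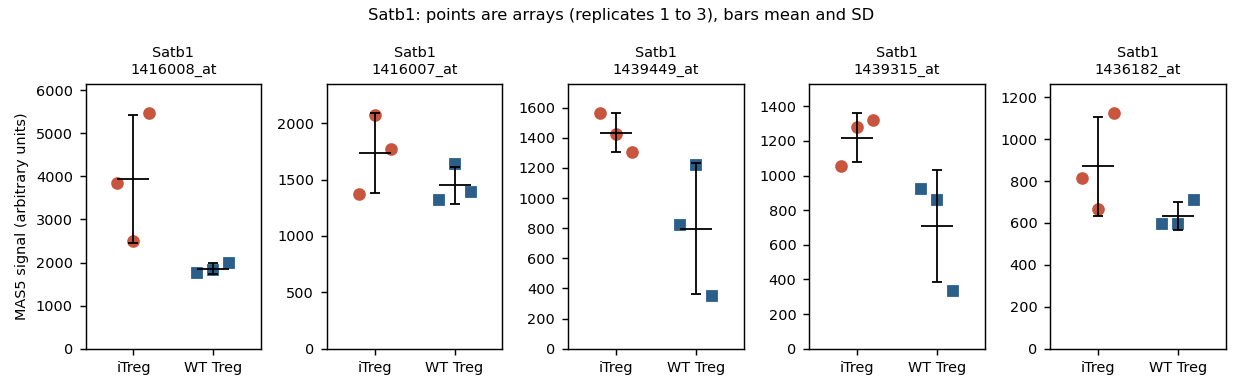
MAS5 signal of the 5 Satb1 probe sets, iTreg left of WT Treg in each panel; points are arrays, bars mean and SD (n = 3). The groups separate on 1416008_at, 1439449_at and 1439315_at and overlap on the other panels, and the last WT point lies far down on 1439449_at (349) and 1439315_at (336).

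Over the 6 arrays, the genes outside the set whose log2 values followed Satb1 1416008_at most closely were Zfp574 (Pearson r = 0.993), the gut-homing receptor Ccr9 (r = 0.993) and Spsb1 (r = 0.992). Zfp574 read 325, 203 and 550 in iTreg, against 90.5, 98.3 and 119 in WT Treg. Ccr9 read 1341, 686 and 1880 in iTreg, against 401, 375 and 500 in WT Treg. Spsb1 read 84.7, 65.5 and 106 in iTreg, against 53.4, 59.3 and 57.0 in WT Treg. They were picked for likeness from among all probe sets tested, and the arrays share their scaling, so r is a description with no test. All shared with Satb1 the order of iTreg replicates, with replicate 3 highest and replicate 2 lowest.

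Lef1, the HMG-box member that could be measured (chr3:131110297-131224357), had strong signals in both groups. On 1454734_at it read 3485, 3164 and 5829 in iTreg, against 2251, 3014 and 3817 in WT Treg. The groups overlapped, since WT replicate 3 lay above iTreg replicates 1 and 2. The difference was 0.44 (SE 0.31, limma adjusted p = 0.886), and 0.34 without the arrays with label doubts. It was 0.17 without iTreg replicate 3 and 0.24 without WT replicate 1, and was 0.62 without WT replicate 3. On its other probe set, 1421299_a_at, iTreg averaged 545 ± 230 and WT Treg 512 ± 107 (SD, n = 3), a difference of 0.0044, 0.36 without the arrays with label doubts and between -0.24 and 0.41 without single arrays.

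Bach2 (chr4:32238413-32586109), the repressor of effector genes, had 3 probe sets with positive differences and overlapping groups. On 1445460_at it read 540, 545 and 869 in iTreg, against 341, 504 and 677 in WT Treg. In both groups replicate 3 was the highest array. The difference was 0.37 (SE 0.34, limma adjusted p = 0.917), and 0.23 without the arrays with label doubts. It lay between 0.12, without WT replicate 1, and 0.60, without WT replicate 3. The other Bach2 probe sets, 1436515_at and 1437667_a_at, differed by 0.13 and 0.35, and without the arrays with label doubts both came to 0.16.

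Foxp1 (chr6:98925342-99522746), the forkhead factor of T cell quiescence, had 8 probe sets, and they did not move as one. On 1435222_at, the brightest on average, it read 1749, 1920 and 2460 in iTreg, against 1483, 2091 and 2229 in WT Treg. The groups overlapped, with a difference of 0.085 (SE 0.28, limma adjusted p = 0.978). Without the arrays with label doubts it was 0.0096, and it lay between -0.094, without WT replicate 1, and 0.20, without WT replicate 3. On 1421141_a_at it read 124, 145 and 152 in iTreg, against 336, 262 and 298 in WT Treg. Here every iTreg array lay below every WT array, and both groups were tight, with 140 ± 14.8 in iTreg against 299 ± 37.0 in WT Treg (SD, n = 3). That difference was -1.01 (SE 0.34, limma adjusted p = 0.697), a 2.01-fold lower level in iTreg on the scale of signal + 16. It was -0.84 without the arrays with label doubts and stayed between -1.09 and -0.92 without single arrays.

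The other 6 Foxp1 probe sets differed by 0.043 to 0.42, all positive. One of them, 1455242_at, named here after its values were seen, had groups that did not overlap: 2140, 2172 and 2259 in iTreg against 1456, 1631 and 1897 in WT Treg. Its difference was 0.40 (SE 0.26, limma adjusted p = 0.870), and 0.33 without the arrays with label doubts. The probe sets 1421140_a_at and 1421142_s_at have the same source accession as 1421141_a_at in the probe-gene table, and they differed by 0.043 and 0.42. No file used here gives probe positions, so which Foxp1 transcripts 1421141_a_at detects was not analysed here.

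**Figure D3:**
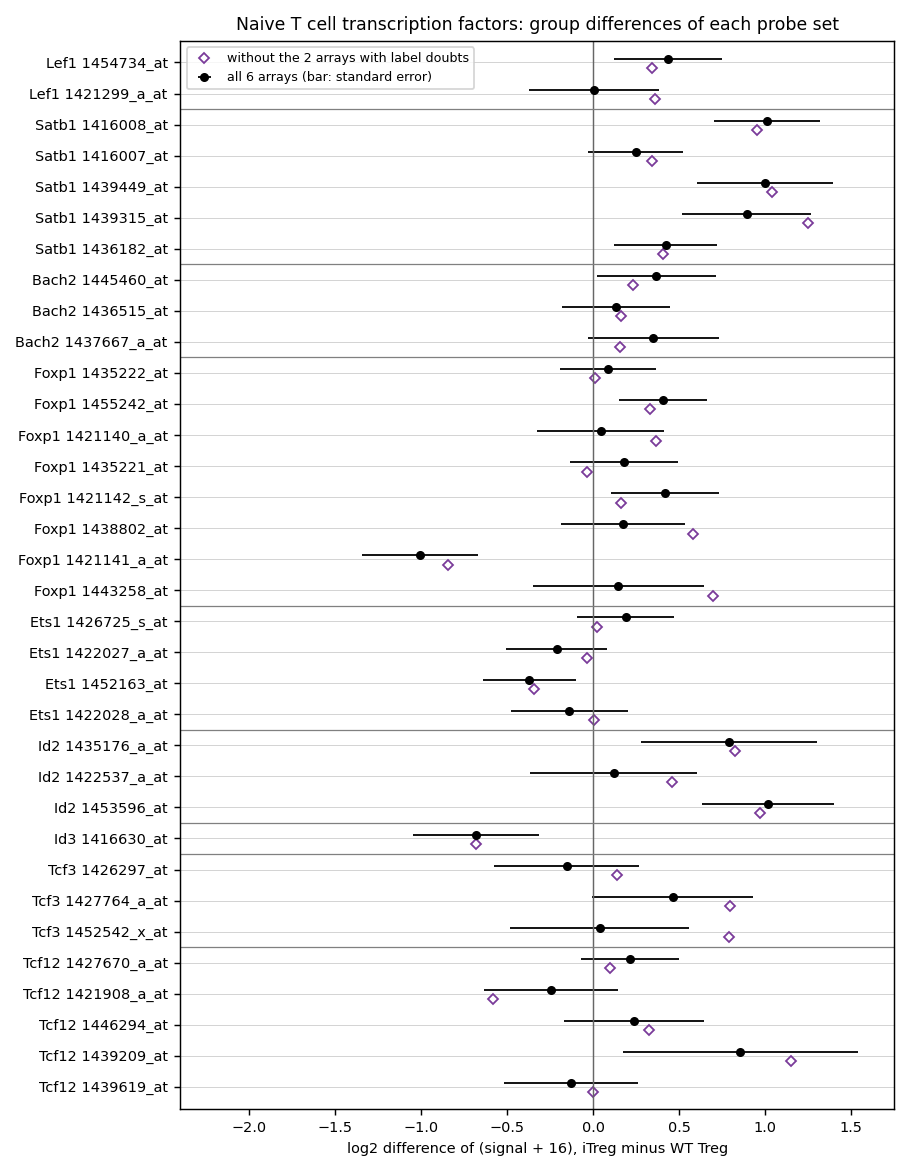
Log2 difference of (signal + 16), iTreg minus WT Treg, for each of the 34 probe sets; dots and bars are the estimate and its standard error over 6 arrays, diamonds the estimate without the 2 arrays with label doubts. Satb1, Id2 and Bach2 lie to the right of 0 on all their probe sets in both, Id3 lies to the left, and Foxp1 1421141_a_at (-1.01) stands apart from the other 7 Foxp1 probe sets.

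Ets1 (chr9:32636241-32757820) had strong signals in both groups, with 3 negative and 1 positive difference and overlapping groups throughout. On 1426725_s_at it read 4418, 3477 and 4902 in iTreg, against 3072, 3357 and 4935 in WT Treg. The highest array was WT replicate 3 and the lowest WT replicate 1, so the WT range held the iTreg values. The difference was 0.19 (SE 0.28, limma adjusted p = 0.944), and 0.020 without the arrays with label doubts. It lay between 0.053, without WT replicate 1, and 0.39, without WT replicate 3. The 3 others differed by -0.37 to -0.14.

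Among the inhibitors of E proteins, Id2 was higher and Id3 lower in iTreg, each short of the threshold. Id3 (chr4:136143822-136145392) has 1 probe set, 1416630_at, which read 176, 204 and 317 in iTreg, against 293, 330 and 530 in WT Treg. The groups overlapped only where iTreg replicate 3 exceeded WT replicate 1. The difference was -0.68 (SE 0.37, limma adjusted p = 0.851), -0.68 without the arrays with label doubts and from -0.92 to -0.44 without single arrays. It was negative in each alternative setting tried.

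Id2 (chr12:25093799-25096092) had positive differences on all 3 probe sets. On 1435176_a_at it read 400, 191 and 123 in iTreg, against 237, 73.0 and 86.7 in WT Treg. Replicate 1 was the highest array of each group, and the groups overlapped. The difference was 0.79 (SE 0.51, limma adjusted p = 0.870), and 0.83 without the arrays with label doubts. It lay between 0.36, without iTreg replicate 1, and 1.26, without WT replicate 1. On 1453596_at it read 71.2, 51.6 and 34.9 in iTreg, against 24.6, 15.0 and 12.9 in WT Treg, so every iTreg array was higher. All WT values there lay under the control level of 28.5, and the size depends on the pseudocount: 1.02 with 16 (SE 0.38, limma adjusted p = 0.760), 1.53 with 1 and 0.51 with 64. Without the arrays with label doubts it was 0.97. On 1422537_a_at the difference was 0.12, with 81.1 ± 33.3 in iTreg against 77.2 ± 47.9 in WT Treg (SD, n = 3). Whether Id2 and Id3 differ from each other in their response was not tested.

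**Figure D4:**
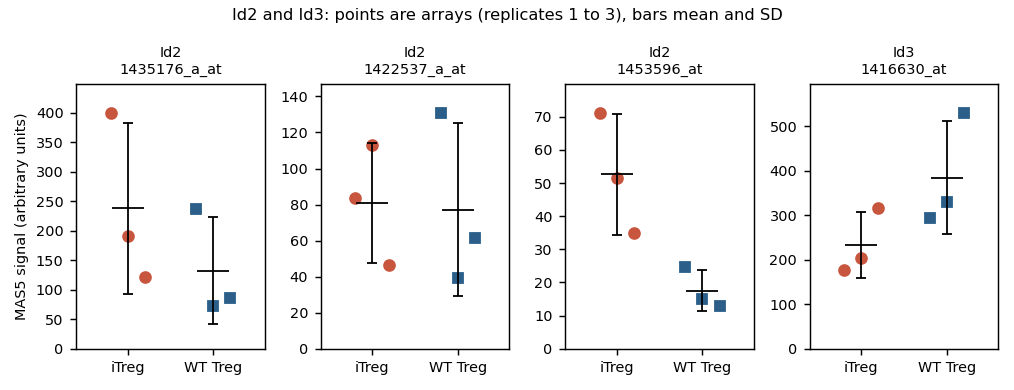
MAS5 signal of the 3 Id2 probe sets and the Id3 probe set, iTreg left of WT Treg in each panel; points are arrays, bars mean and SD (n = 3). The groups separate on Id2 1453596_at, where WT Treg reached at most 24.6, and overlap on the other Id2 panels; on Id3 the iTreg mean of 232 lies under the WT mean of 385.

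The E proteins themselves showed no one direction. Tcf3 (chr10:80409541-80433976) read 103, 296 and 263 in iTreg, against 181, 256 and 249 in WT Treg on 1426297_at. Replicate 1 was the lowest of each group, and the difference was -0.15 (SE 0.42, limma adjusted p = 0.974) and 0.14 without the arrays with label doubts. It turned to 0.28 without iTreg replicate 1 and was -0.41 without iTreg replicate 2. Its other probe sets, 1427764_a_at and 1452542_x_at, were near the control level. The first averaged 46.5 ± 17.7 in iTreg against 32.5 ± 23.3 in WT Treg, and the second 25.3 ± 27.5 in iTreg against 23.9 ± 24.4 in WT Treg (SD, n = 3). They differed by 0.46 and 0.037.

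Tcf12 (chr9:71844252-72111893) read 1148, 1067 and 750 in iTreg, against 836, 839 and 834 in WT Treg on 1427670_a_at. The WT arrays were almost equal there, and the iTreg values fell on both sides of them. The difference was 0.21 (SE 0.28, limma adjusted p = 0.936), and 0.096 without the arrays with label doubts. It was also 0.096 without iTreg replicate 1, and 0.40 without iTreg replicate 3. The 4 others differed by -0.25 to 0.86. The largest of these, on 1439209_at, was singled out after its values were seen: 209, 205 and 131 in iTreg, against 171, 226 and 11.2 in WT Treg. It rests on WT replicate 3, without which the difference was -0.13.

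Related genes were read out of the same fit from lists of genes, and no probe set of these lists passed. The rest of the E protein and Id family (Tcf4, Id1, Id4) gave 3 tested probe sets, all of Tcf4, also an E protein, whose brightest averaged 26.4 in iTreg, against 16.1 in WT Treg, both under the control level. Relatives and partners of LEF-1 gave 26 tested probe sets with a median difference of -0.11, 12 positive and 14 negative. There Tcf7l2, an HMG-box paralog, read 3.53, 0.361 and 10.2 in iTreg, against 5.56, 95.1 and 51.9 in WT Treg. All iTreg arrays and WT replicate 1 lay under the control level, so the difference depends on the pseudocount: -1.43 with 16 (limma adjusted p = 0.740) and -0.66 with 64. Apc, a scaffold of the beta-catenin destruction complex, differed by -0.53 with no overlap on its brightest probe set (limma adjusted p = 0.859). Its other probe sets had overlapping groups and differences from -0.52 to -0.16. Tle5, a short Groucho family member, differed by 0.73, by 0.12 without iTreg replicate 3 and by 1.13 without iTreg replicate 2. Partners and opponents of Bach2 gave 12 probe sets with a median of 0.32, 8 positive and 4 negative. Irf4, a factor of effector Treg, read 135, 156 and 145 in iTreg, against 275, 365 and 849 in WT Treg, a difference of -1.51 with no overlap (limma adjusted p = 0.536). Batf, the AP-1 partner of Irf4, differed by -1.46, and by -0.35 without iTreg replicate 3. Nfe2l2, which like Bach2 pairs with small Maf proteins, differed by 0.47. Paralogs of Foxp1, Satb1 and Ets1 gave 21 probe sets with a median of 0.020, among them Etv6 (0.49), Elf4 (0.47) and Fli1 (-0.40).

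Other regulators of T cell identity and quiescence gave 48 probe sets with a median of 0.26, 34 positive and 14 negative; in 7 the iTreg arrays lay above all WT arrays (4.54% of all probe sets tested) and in 0 below (6.89% of all). Myb, a factor of T cell development and survival, read 2807, 1478 and 1727 in iTreg, against 710, 965 and 687 in WT Treg. On this probe set, its brightest, all iTreg arrays were higher, with a difference of 1.29 (SE 0.31, limma adjusted p = 0.377). It was 0.96 without the arrays with label doubts. The other tested Myb probe sets had overlapping groups and smaller differences of 0.52 and 0.28. Without the arrays with label doubts these came to 0.33 and -0.11. The repressor Bcl6 differed by 0.79 and Ikzf1, which encodes Ikaros, by 0.58, both with no overlap on their brightest probe sets. On the other probe set of each gene the groups overlapped, with differences of 0.48 for Bcl6 and 0.27 for Ikzf1.

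Genes known to be high in naive T cells gave 37 probe sets with a median of 0.47, 27 positive and 10 negative. In 12 the iTreg arrays lay above all WT arrays (4.54% of all probe sets tested), and in 1 they lay below (6.89% of all). Several of the 12 were of Igfbp4 or Ccr9, and probe sets of a gene share their target. Ccr9 differed by 1.47 (limma adjusted p = 0.399), Tdrp by 1.40 and Als2cl by 1.53, each with no overlap. Among the 10 negative ones, Il7r differed by -1.20 and Nsg2 by -1.24 on their brightest probe sets, both with overlapping groups. Genes known to be high in effector T cells gave 35 probe sets with a median of -0.43, 9 positive and 26 negative. Without overlap, 1 lay above (4.54% of all) and 9 below (6.89% of all), several of the 9 being of Maf. Maf, a factor of effector Treg, read 828, 873 and 1133 in iTreg, against 1899, 2150 and 3344 in WT Treg, a difference of -1.34 (SE 0.30, limma adjusted p = 0.316). For the cytokine Il10 all iTreg signals were under the control level, and its difference was -1.75 with a pseudocount of 16 and -0.76 with 64. The inhibitory receptor Klrg1 differed by 1.83 (limma adjusted p = 0.169). These lists were written with earlier results of these arrays known and include genes seen before, so their counts are no independent evidence of a direction.

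**Figure D5:**
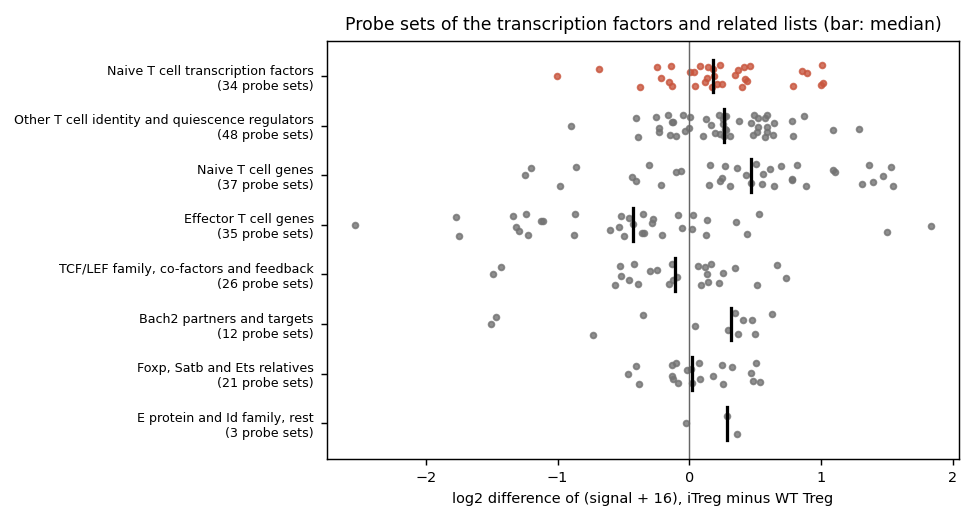
Log2 difference of (signal + 16), iTreg minus WT Treg, of each tested probe set of the transcription factors (34) and of 7 related lists; bars are medians. Medians lie at 0.18 for the transcription factors, 0.26 for other identity and quiescence regulators, 0.47 for naive T cell genes and -0.43 for effector T cell genes.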

How the data were processed

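RNA extracted with Trizol was labelled with biotin and hybridised to 6 one-colour Affymetrix mouse arrays, 3 per group, as the labels' protocols say. Deposited values are intensity signals on a linear scale, made by the authors with MAS5 per the submitters' processing notes, of unstated version. With 2% trimmed at each end, every array averages 150.0, as after global scaling. Of 45101 probe sets, 64 are controls. Symbols came from the platform table and were updated to RefSeq names (GRCm38.p6). Gene positions are RefSeq's.

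Signals were taken as log2(signal + 16), which understates changes of low signals. Probe sets whose mean log2 reached 4.91, the 40th percentile, were tested, 27022 in all. All 34 probe sets of the set passed this filter. The two-sided test of iTreg minus WT Treg used lmFit and eBayes with an intensity trend (limma 3.58.1, R 4.3.3). The fit was tested on simulated data with known changes. At an adjusted p under 0.05 it recovered 11.3% of changes of 1 log2 unit and 89.8% of changes of 2. These shares describe the simulated data only. On the arrays, differences above 2 in size also went uncalled. On their brightest probe sets these were -2.08 for Nrp1 (limma adjusted p = 0.123) and -2.54 for Lag3 (limma adjusted p = 0.316). The called probe sets all had differences larger in size than these. A probe set that was not called may therefore still differ by 1 log2 unit or by more than 2. Detection calls were not used here, and the number of arrays limits the precision. Values per array are given for the brightest probe set of each gene. They are also given for others with an unadjusted p under 0.05 or more than 1 log2 unit from the brightest. Related genes are the 3 with the smallest p per list, with Il7r and Nsg2 added for their negative differences. Members, lists and alternatives were chosen with earlier results of these data known.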

Additional observations from a re-analysis of the deposited data

How the results depend on the processing

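With 19 alternative settings, no probe set of the 34 was called, and the lowest adjusted p of any was 0.373, for Satb1 1416008_at with quantile normalization. The number of probe sets called over the whole table was 7 in the main comparison, 2 with a pseudocount of 1, 2 with no filter, 12 with array weights, 3 with 1 probe set per gene, 3 with a replicate block, 0 without both arrays with label doubts, 0 without both replicate 3 arrays, and from 0 to 9 without single arrays. The 5 settings with 0 calls, which also include those without iTreg replicate 1, WT replicate 2 or WT replicate 3 alone, gave 1246 to 1604 probe sets at an unadjusted p under 0.05. With array weights 1 probe set of the lists was called, of Nrp1, on which iTreg were gated. The median difference over the 34 probe sets was 0.27 with median scaling, 0.33 without both arrays with label doubts and 0.15 to 0.30 without single arrays.

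The direction turned for 16 of the 34 probe sets under some setting and for 18 under none; all 5 of Satb1 and Id3 are among the 18. With array weights the difference was -0.060 for Lef1 1421299_a_at, -0.091 for Foxp1 1438802_at, -0.19 for Foxp1 1443258_at and -0.46 for Tcf3 1452542_x_at. Without both arrays with label doubts it was -0.037 for Foxp1 1435221_at, 0.0014 for Ets1 1422028_a_at and 0.14 for Tcf3 1426297_at. Without both replicate 3 arrays it was -0.26 for Foxp1 1438802_at, -0.30 for Foxp1 1443258_at, 0.049 for Ets1 1422028_a_at, -0.018 for Tcf3 1427764_a_at, -0.87 for Tcf3 1452542_x_at and -0.16 for Tcf12 1446294_at. The cause was not tested. Without single arrays the range was -0.24 to 0.41 for Lef1 1421299_a_at, -0.032 to 0.31 for Bach2 1436515_at, -0.094 to 0.20 for Foxp1 1435222_at, -0.30 to 0.31 for Foxp1 1421140_a_at, -0.0038 to 0.39 for Foxp1 1435221_at, -0.12 to 0.41 for Foxp1 1438802_at, -0.35 to 0.44 for Foxp1 1443258_at, -0.31 to 0.16 for Ets1 1422028_a_at, -0.20 to 0.51 for Id2 1422537_a_at, -0.41 to 0.28 for Tcf3 1426297_at, -0.47 to 0.50 for Tcf3 1452542_x_at, -0.48 to 0.077 for Tcf12 1421908_a_at, -0.095 to 0.44 for Tcf12 1446294_at, -0.13 to 1.44 for Tcf12 1439209_at and -0.40 to 0.025 for Tcf12 1439619_at.

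The replicate block used the numbers of the titles. Deviations of same-numbered arrays from their group means correlated at 0.191, 0.037 and 0.118 for replicates 1, 2 and 3, so the numbers are not shown to pair the arrays. The block left the number of called probe sets among the 34 at 0. Signals near the control level limit Tcf3 1452542_x_at, Tcf3 1427764_a_at, Id2 1453596_at and Tcf12 1439619_at.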
